A study of Mus musculus with 10 samples.

Results

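Immediate early genes and heat shock genes are the 2 classic rapid stress programmes of mammalian cells, and 33 of them were followed here in lymphatic endothelial cells, the cells that line lymphatic vessels. The members were taken by symbol from a table of 23510 genes. They comprise 22 immediate early genes, of which 16 encode transcription factors, and 11 heat shock genes, namely 10 chaperones and the transcription factor Hsf1. Flow cytometry had isolated the cells from MT-ret melanomas that grew in C57BL/6N mice from implanted tumour fragments. One group of mice was injected intraperitoneally with an antibody to angiopoietin-2 (anti-Ang2), a ligand of the endothelial receptor Tie2, and the control group with IgG, in both cases for 12 hours. Each treatment had 5 libraries, which the submitters describe as biological replicates. The sources used here do not give antibody dose, age or sex.

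The anti-Ang2 libraries held 38090933 to 51786044 gene counts and the IgG libraries 40313230 to 83850341. All 10 lymphatic endothelial markers fixed for the check were present in every library, the lowest value being 180.1 CPM, the count scaled to the size of the library. Of 8 marker lists none differed between the treatments at an adjusted p under 0.05 (two-sided exact permutation test, smallest p allowed 0.00794). After adjustment over 8 lists a single list at that smallest p could not pass unless other lists had small p-values too. The test therefore cannot show that the lists were alike. The lists for blood endothelium, pericytes and T cells had adjusted p-values of 0.0847 each, at 3130, 321 and 19.1 CPM in anti-Ang2 and 4829, 143 and 27.6 CPM in IgG libraries, and those for lymphatic endothelium, fibroblasts and keratinocytes 0.233, 0.929 and 0.562 (same test). Blood endothelial genes did not all go one way. Plvap (mean 2216 CPM in anti-Ang2, 4022 CPM in IgG), Vwf, Cd34 and Aplnr were lower in anti-Ang2 libraries. Esm1 (204 and 74.7 CPM), Flt1, Emcn and Ly6c1 were higher. Among pericyte genes Cspg4 (172 and 53.2 CPM), Acta2, Kcnj8 and Abcc9 were higher in anti-Ang2 libraries. Pdgfrb (4.69 and 8.15 CPM) and Rgs5 (3.29 and 7.83 CPM) were lower. The summed level of 12 melanoma markers was 1135 to 5580 CPM in anti-Ang2 and 269 to 1862 CPM in IgG libraries (p = 0.0476, adjusted p = 0.0952, exact permutation test). That of 14 macrophage markers was 72.8 to 283 CPM in anti-Ang2 and 52.3 to 211 CPM in IgG libraries (p = 0.135, adjusted p = 0.216, exact permutation test). Of these markers, Gpr143 was at 0 in at least 1 library among the melanoma genes, as were 5 of the macrophage genes. Among the macrophage genes only Mrc1 had a lower mean in anti-Ang2 libraries (35.5 CPM, against 40.0 CPM in IgG). All others had a higher mean there, among them Lyz2 (62.3 and 22.9 CPM), C1qb (19.7 and 4.26 CPM) and Adgre1 (2.51 and 0.287 CPM).

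Immediate early genes are transcribed within minutes of a stimulus, without new protein synthesis, when kinases such as ERK and p38 activate factors already bound at their promoters, among them SRF with its ELK partners and CREB. Most of their products are transcription factors that act on a second wave of genes, or inhibitors that end the signal, and their mRNAs are short-lived. Heat shock genes are switched on by HSF1, which binds inverted GAA repeats when unfolded proteins occupy the chaperones that otherwise hold it back. In endothelial cells members of the first programme respond to growth factors and to flow. Transcripts of both programmes are also known to accumulate while tissue is dissociated for sorting.

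At 12 hours of anti-Ang2, 1 of the 33 members changed at the threshold used (edgeR quasi-likelihood test, Benjamini-Hochberg adjusted p under 0.05). This was the small heat shock protein Hspb1, which was higher. Of all 16240 tested genes 1.34% were called higher and 2.8% lower, 4.13% in either direction. All 33 members passed the filter on low counts. Of the 22 immediate early genes 0 were called in either direction by edgeR; at an unadjusted p under 0.05, 4 were higher and 0 lower, where 9.14% of all tested genes were higher and 9.1% lower. Every anti-Ang2 library lay above every IgG library for 2 of the 22 (2.34% of all tested genes) and below for 0 (3.76%). DESeq2 called 3 of them higher (Nr4a3, Fosl2 and Fosl1) and 0 lower, against 5.46% higher and 5.94% lower over all genes to which it gave an adjusted p, and limma-voom with quality weights called Nr4a3. Among the 11 heat shock genes 4 were higher and 0 lower at an unadjusted p under 0.05 by edgeR, and the groups overlapped for all 11. DESeq2 called 3 of the 11 (Hspb1, Hsph1 and Hspe1), all higher. The authors' deposited table called Hspb1 and Hsph1 of these 11, both higher. In the authors' deposited table Nr4a3 and Fosl2 were called higher and 0 lower, where that table calls 4.25% higher and 4.83% lower. The median log2 fold change was 0.10 over the 22 immediate early genes and 0.12 over the 11 heat shock genes, beside 0.01 over all tested genes. The 17 transcription factors, Hsf1 included, had 14 positive and 3 negative estimates (median 0.21), the 10 chaperones 8 and 2 (median 0.15) and the 6 other immediate early genes 1 and 5 (median -0.03). In bulk RNA, fewer cells with a transcript and less of it per cell cannot be told apart.

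The data limit the size of a missed change more tightly for some members than for others. The 95% confidence interval of the fold change lay within 1.5-fold either way for 9 of the 22 immediate early genes and for 8 of the 11 heat shock genes. It lay within 2-fold for 18 and 11 of them. The exceptions among the immediate early genes were Fosl1, Atf3, Egr3 and Nr4a3.

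**Figure D1:**
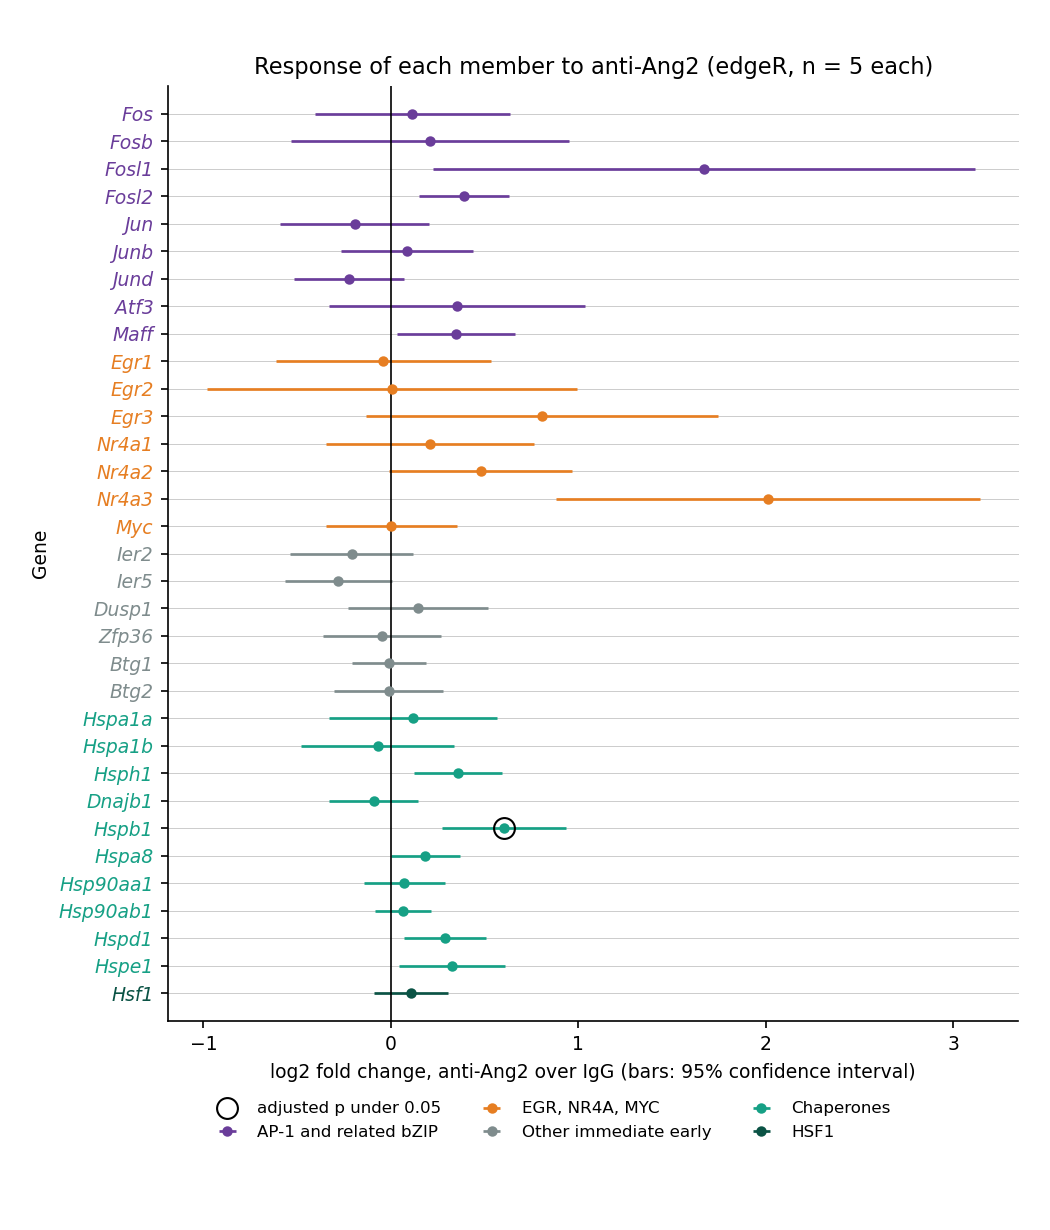
Log2 fold change of each member (horizontal axis, anti-Ang2 over IgG; points are edgeR estimates, bars 95% confidence intervals, n = 5 libraries each), coloured by role. Most intervals include 0; Hspb1 (ringed) is the only member past the threshold, and Nr4a3 and Fosl1 have the largest estimates, 2.01 and 1.67, with wide intervals.

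AP-1 is a dimer of a FOS and a JUN protein, and none of its most abundant subunits passed the test. Fos, the founding member, had 1362, 1339, 2054, 1231 and 1721 CPM in anti-Ang2 libraries, against 1591, 1007, 1159, 1036 and 2326 CPM in IgG libraries. The groups overlapped throughout, with both the lowest and the highest value in IgG. The change was 8.26% with a 95% interval of -24.4% to 55.1% (adjusted p = 0.867 by edgeR). Jun, its main partner, had 1087, 1192, 1629, 1058 and 1445 CPM in anti-Ang2 libraries, against 1494, 1306, 1363, 1059 and 2111 CPM in IgG libraries. Here too the groups overlapped, and the log2 fold change was -0.19 ± 0.18 (SE, adjusted p = 0.657 by edgeR). Junb and Jund, which can replace Jun in the dimer, had log2 fold changes of 0.09 and -0.22, and Fosb, a close relative of Fos, had 0.21 (adjusted p of at least 0.428 by edgeR).

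The FOS relatives Fosl2 (FRA2) and Fosl1 (FRA1), which typically follow Fos later in a response, had the smallest p-values of the AP-1 genes. Fosl2 had 102, 105, 99.9, 121 and 145 CPM in anti-Ang2 libraries, against 77.3, 90.9, 86.0, 88.0 and 95.6 CPM in IgG libraries. The groups did not overlap, the anti-Ang2 libraries all being higher. Its log2 fold change was 0.39 ± 0.11 (SE), which missed the threshold (adjusted p = 0.0755 by edgeR). It passed by DESeq2 (adjusted p = 0.0126), in the authors' deposited table (0.0148), with macrophage marker RNA in the model (0.54 ± 0.10, adjusted p = 0.0251 by edgeR) and without anti-Ang2 libraries 1, 2 and 3 (0.60 ± 0.11, adjusted p = 0.0472 by edgeR). Of the 22 alternatives run, Fosl2 passed under 3. With 1 library left out it passed in 0 of 10 cases (adjusted p 0.0697 to 0.168 by edgeR). With melanoma marker RNA in the model it missed the threshold (0.51 ± 0.14, adjusted p = 0.140 by edgeR). Without anti-Ang2 libraries 4 and 5, where its level was highest, the log2 fold change was 0.22 ± 0.08 (adjusted p = 0.150 by edgeR). These 2 libraries also had the lowest limma quality weights (0.606 and 0.417, against 0.911 to 1.43 in the other 8) and the fewest detected genes (19732 and 19201). Library 5 had the highest mitochondrial share of counts (0.917%, against 0.477% to 0.709% in the others). The part of library quality in the level of Fosl2 was not tested. In mm10 Fosl2 (ENSMUSG00000029135.10) spans chromosome 5 from 32135801 to 32157842 on the plus strand, exons, introns and untranslated regions included.

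Fosl1 varied more among anti-Ang2 libraries than any other member. It had 9.42, 18.8, 46.0, 4.17 and 2.35 CPM in anti-Ang2 libraries, against 5.38, 5.11, 6.80, 4.37 and 3.68 CPM in IgG libraries. Anti-Ang2 libraries 1, 2 and 3 lay above every IgG library and libraries 4 and 5 below the IgG mean. The log2 fold change was 1.67 ± 0.66 (SE, adjusted p = 0.200 by edgeR), and 0.78 ± 0.51 without anti-Ang2 3 alone (0.539). Libraries 1, 2 and 3 were also those with the most melanoma marker RNA, 5580, 3976 and 4573 CPM, against 1715 and 1135 CPM in libraries 4 and 5 and 442, 1753, 269, 1862 and 579 CPM in IgG libraries. With melanoma marker RNA as a term in the model the log2 fold change was 0.61 ± 1.23 and without these 3 libraries -0.65 ± 0.37 (adjusted p = 0.872 and 0.426 by edgeR). Without libraries 4 and 5 it was 2.27 ± 0.43 and passed (adjusted p = 0.0174 by edgeR). The part of melanoma RNA in the level of Fosl1 was not tested. Fosl1 also overlaps Ccdc85b on the opposite strand by 2767 bases. The kit does not mark strand, so that reads from the shared bases cannot be told apart.

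The remaining bZIP factors, Atf3 and Maff, did not pass either. Atf3, a stress-induced factor that pairs with JUN proteins, had 107, 117, 192, 72.2 and 114 CPM in anti-Ang2 libraries, against 119, 67.8, 74.4, 53.3 and 157 CPM in IgG libraries. The groups overlapped widely, and the log2 fold change was 0.35 ± 0.31 (adjusted p = 0.630 by edgeR). Maff, a small MAF protein that lacks an activation domain, had a log2 fold change of 0.35 ± 0.14 (adjusted p = 0.222 by edgeR).

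The NR4A orphan nuclear receptors are immediate early factors that act without a known hormone, and in blood endothelium they are known as targets of VEGF signalling. Nr4a3 (NOR-1) had the largest log2 fold change of all members. It had 19.2, 12.4, 9.08, 4.69 and 6.89 CPM in anti-Ang2 libraries, against 0.511, 4.23, 1.99, 3.22 and 2.97 CPM in IgG libraries. All 5 anti-Ang2 libraries lay above all IgG libraries. The mean was 10.4 ± 5.65 CPM in anti-Ang2 and 2.58 ± 1.40 CPM in IgG libraries (SD, n = 5 each), and the log2 fold change 2.01 ± 0.52 (SE, adjusted p = 0.0533 by edgeR), just above the threshold. It was called by DESeq2 (adjusted p = 0.000987), by limma-voom with quality weights (0.0310), with upper quartile factors (0.0489), with library totals (0.0484), with the stricter filter (0.0402), without IgG 1 (0.0432), without anti-Ang2 4 (0.0433) and without anti-Ang2 4 and 5 (0.0301). In the authors' deposited table it had a log2 fold change of 1.76 and an adjusted p of 0.00120. Of the 22 alternatives run, Nr4a3 was called under 8. With 1 library left out it was called in 2 of 10 cases (adjusted p 0.0432 to 0.139 by edgeR). It missed the threshold with RLE factors (0.0524), with no filter (0.0707) and with the replicate number as a block (0.195, all by edgeR). Anti-Ang2 1, 2 and 3 were the highest in Nr4a3 as in melanoma marker RNA. With that RNA as a term in the model the log2 fold change was 0.97 ± 0.56 (adjusted p = 0.503 by edgeR), without these 3 libraries it was 1.15 ± 0.62 (0.406) and with macrophage marker RNA 2.46 ± 0.74 (0.177). The part of RNA from other cells was not tested.

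Its paralogs Nr4a1 (NUR77) and Nr4a2 (NURR1) had positive estimates that did not pass. Nr4a1 had 168, 138, 172, 191 and 154 CPM in anti-Ang2 libraries, against 105, 103, 103, 134 and 268 CPM in IgG libraries. All 5 anti-Ang2 libraries lay above the other 4 IgG libraries, and IgG 5 above all. The log2 fold change was 0.21 ± 0.25 (adjusted p = 0.750 by edgeR) and, without IgG 5, 0.57 (adjusted p = 0.0322 by edgeR). Nr4a2 had a mean of 14.5 ± 1.92 CPM in anti-Ang2 and 10.4 ± 3.59 CPM in IgG libraries (log2 fold change 0.48 ± 0.22, adjusted p = 0.284 by edgeR). Nr4a3 (ENSMUSG00000028341.9) spans, in mm10, chromosome 4 from 48045153 to 48086447 on the plus strand, exons, introns and untranslated regions included.

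The RefSeq promoters of the 3 NR4A genes share a feature that was not used to choose them. Each holds 4 matches to TGACG or its reverse complement CGTCA, the half-site of the cAMP response element bound by CREB, within 250 bases upstream of the start site. At least 1 match occurs in 17.8% of 32851 RefSeq mouse promoters and 4 or more in 0.137%. None of the 3 windows holds the full element TGACGTCA (1.55% of all promoters), which was found in Maff, Dusp1 and Btg2. The CArG box bound by SRF was found in Egr2 and Zfp36 (1.47% of all promoters). Of the 22 immediate early genes 17 had a RefSeq promoter, some with several start sites. Fosl1, Egr1, Egr3, Myc and Ier2 had none and were not searched. At least 1 half-site was found in 12 of the 17 genes, beside 17.8% of all promoters. A half-site was also found in 4 of the 7 heat shock genes with a RefSeq promoter. The stretches below (GRCm38.p6) show the half-sites in capitals, with Fos beside them; that of Nr4a3 ends where the annotated GENCODE exon begins and so holds 3 of its 4 matches. A match is a description of the letters and not a measured binding site.
Nr4a3, chr4:48045055-48045152, plus strand: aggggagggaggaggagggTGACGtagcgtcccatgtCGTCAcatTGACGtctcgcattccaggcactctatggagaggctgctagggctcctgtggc
Nr4a1, chr15:101266596-101266845, plus strand: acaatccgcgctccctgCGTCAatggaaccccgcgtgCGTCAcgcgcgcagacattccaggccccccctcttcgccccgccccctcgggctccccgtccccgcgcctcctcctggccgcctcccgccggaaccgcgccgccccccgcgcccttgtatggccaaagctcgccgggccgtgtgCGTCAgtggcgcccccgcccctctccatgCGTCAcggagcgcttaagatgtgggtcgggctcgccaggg
Nr4a2, chr2:57124004-57124253, minus strand: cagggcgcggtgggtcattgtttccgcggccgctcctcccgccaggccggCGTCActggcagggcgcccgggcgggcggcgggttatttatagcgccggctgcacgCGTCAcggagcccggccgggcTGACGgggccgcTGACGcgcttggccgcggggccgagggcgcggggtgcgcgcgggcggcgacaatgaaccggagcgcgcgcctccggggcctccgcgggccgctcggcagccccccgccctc
Fos, chr12:85473740-85473889, plus strand: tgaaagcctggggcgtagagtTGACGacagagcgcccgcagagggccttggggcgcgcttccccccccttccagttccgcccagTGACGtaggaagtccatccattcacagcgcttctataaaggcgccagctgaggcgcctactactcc

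The EGR zinc finger factors and Myc did not pass the test. Egr1, whose transcription depends on SRF, had 879, 1505, 1558, 933 and 1440 CPM in anti-Ang2 libraries, against 1155, 1132, 1035, 888 and 2286 CPM in IgG libraries. The anti-Ang2 libraries lay within the range of the IgG libraries except library 1, which lay just below it. The change was -2.78% with a 95% interval of -34.7% to 44.8% (adjusted p = 0.961 by edgeR). Egr2 and Egr3 were scarce, at 4.11 to 14.5 and 0.877 to 2.65 CPM in anti-Ang2 and 4.43 to 15.3 and 0.736 to 2.12 CPM in IgG libraries. Their log2 fold changes were 0.00 ± 0.45 and 0.81 ± 0.43 (adjusted p = 0.997 and 0.366 by edgeR). Myc, a driver of growth and ribosome production, had 164 ± 38.7 CPM in anti-Ang2 and 164 ± 23.3 CPM in IgG libraries (SD, n = 5 each), a change of 0.191% with a 95% interval of -21.3% to 27.5%.

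The immediate early genes that encode no DNA-binding factor of these families act mostly to limit a response, and none of the 6 passed the test. Dusp1 (MKP-1), a phosphatase that inactivates p38 and JNK, had 1119, 1347, 1707, 1339 and 1592 CPM in anti-Ang2 libraries, against 1195, 1071, 1188, 1073 and 1896 CPM in IgG libraries. Its change was 10.6% with a 95% interval of -14.7% to 43.3% (adjusted p = 0.742 by edgeR). Zfp36 (tristetraprolin), which binds AU-rich elements and hastens mRNA decay, changed by -3.19% (interval -22.3% to 20.5%). Btg1 and Btg2, antiproliferative partners of the CCR4-NOT deadenylase, changed by -0.859% and -0.838%; their sign turned with upper quartile factors and with library totals. Ier5, a regulator known to assist HSF1, and the nuclear protein Ier2 had the most negative estimates of this set, -0.28 ± 0.13 and -0.21 ± 0.15 on the log2 scale (adjusted p = 0.283 and 0.524 by edgeR). All 6 intervals lay within 1.5-fold.

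Per length, the programme was strongly expressed in both treatments. In deposited FPKM, a level per length and depth, Fos was the highest member at 684 ± 155 in anti-Ang2 and 620 ± 229 in IgG libraries, followed in the IgG order by Junb (anti-Ang2 584 ± 94.0, IgG 541 ± 115), Dusp1 (anti-Ang2 550.01 ± 93.9, IgG 488 ± 119) and Jun (anti-Ang2 419.7 ± 82.4, IgG 471 ± 116; SD, n = 5 each). In anti-Ang2 libraries the gap between neighbours was below both SDs for Junb and Dusp1, but not for Fos and Junb or for Dusp1 and Jun. In IgG libraries it was below both SDs for all these neighbours. The cytosolic chaperone Hsp90ab1 came next at 349.6 ± 9.84 FPKM in anti-Ang2 and 329.5 ± 14.3 FPKM in IgG libraries. Among the rarest were Nr4a3 at 1.81 ± 0.972 FPKM in anti-Ang2 and 0.441 ± 0.239 FPKM in IgG libraries and Egr3 at 1.42 ± 0.516 FPKM in anti-Ang2 and 0.803 ± 0.393 FPKM in IgG libraries. The FOS relatives Fosl2 (anti-Ang2 12.4, IgG 9.29 FPKM) and Fosl1 (anti-Ang2 9.73, IgG 3.06 FPKM) stood far below Fos.

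**Figure D2:**
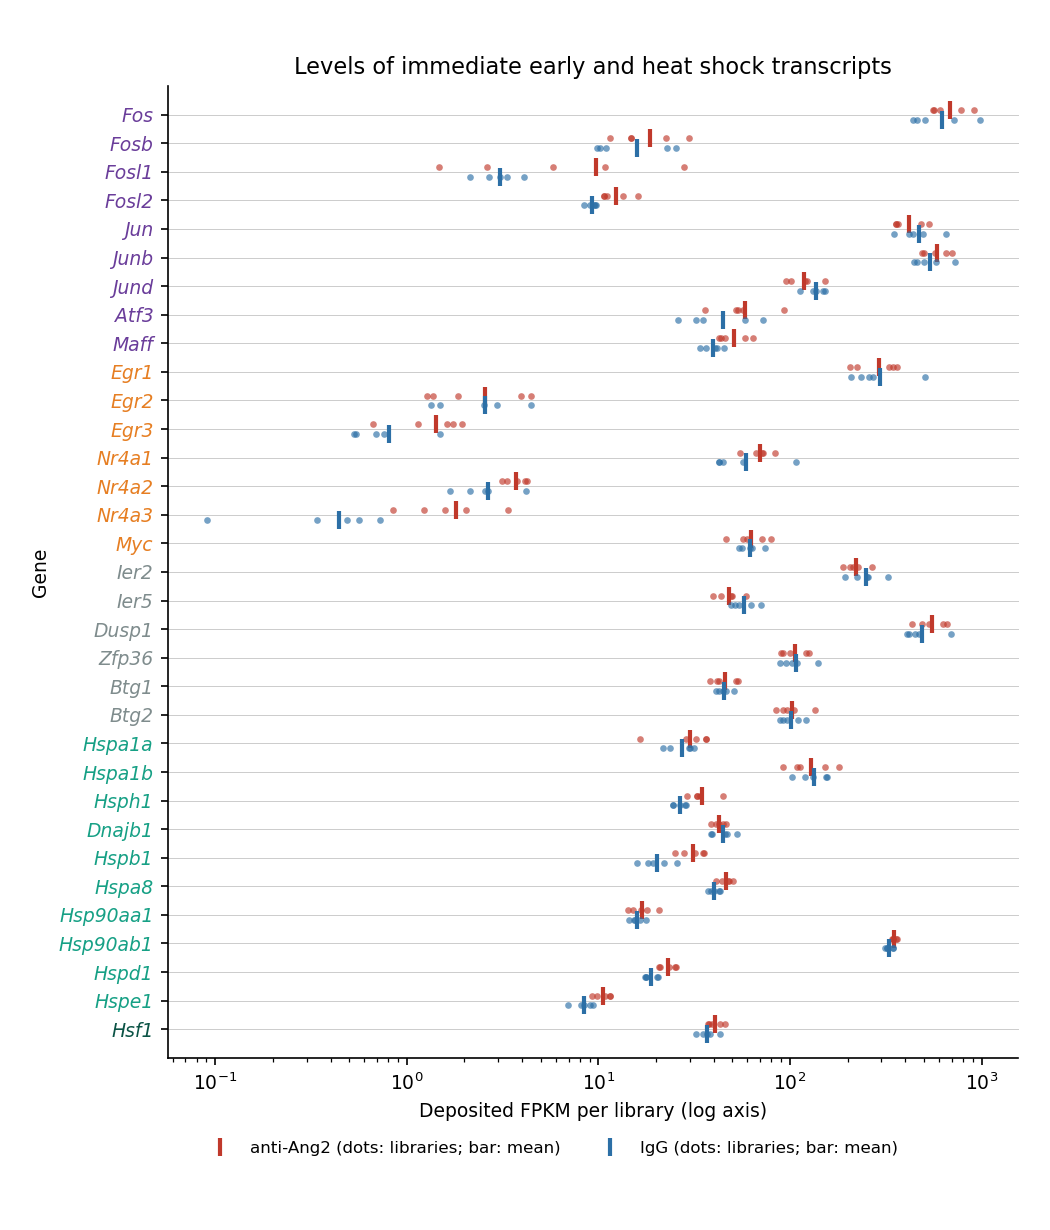
Deposited FPKM (log axis) of each member in each library, anti-Ang2 above IgG in each row, with the group mean as a bar. Single libraries span from 0.0903 FPKM (Nr4a3 in IgG 1) to 979 FPKM (Fos in IgG 5) and group means from 0.441 FPKM (Nr4a3 in IgG) to 684 FPKM (Fos in anti-Ang2), and the widest scatter within a group lies among the FOS, EGR and NR4A genes.

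The immediate early genes had a wider median spread between libraries than the chaperones. The median SD of log2 CPM over the 22 genes was 0.27 in anti-Ang2 and 0.34 in IgG libraries. Over all tested genes it was 0.32 in anti-Ang2 and 0.27 in IgG libraries. Over 4616 tested genes with a mean of at least 50 CPM it was 0.18 in anti-Ang2 and 0.14 in IgG libraries, and over the 10 chaperones 0.19 in anti-Ang2 and 0.13 in IgG libraries. Of the 22 genes Egr2, Egr3, Nr4a2, Nr4a3 and Fosl1 lay below that level. IgG 5 was the highest IgG library for 15 of the 22 genes, where it was highest for 19.6% of all tested genes. It held 2.17 times the mean of the other 4 IgG libraries for Egr1, 2.41 times for Nr4a1, 1.94 times for Fos and 1.67 times for Dusp1. For Btg1, Nr4a2 and Myc it held 0.974, 1.057 and 1.083 times that mean.

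Anti-Ang2 3 was the highest anti-Ang2 library for 16 of the 22 genes, against 16.3% of all tested genes, and anti-Ang2 4 the lowest for 11, against 19.6%. Anti-Ang2 3 held 1.88 times the mean of the other 4 anti-Ang2 libraries for Fosb, 1.87 times for Atf3 and 1.45 times for Fos. The median deviation of the 22 genes from their group mean was 0.33 in anti-Ang2 3 and -0.27 in anti-Ang2 4, beside 0.47 in IgG 5 and -0.20 in IgG 4 (log2). Summed over the 22 genes, the level ran from 2950 to 4288 FPKM in anti-Ang2 and from 2664 to 4736 FPKM in IgG libraries, so that the treatments overlapped. For the chaperones the median log2 deviation was 0.13 in anti-Ang2 3, -0.17 in anti-Ang2 4, 0.15 in IgG 5 and -0.07 in IgG 4. IgG 5 was the highest IgG library for 5 of the 10 chaperones (19.6% of all tested genes). Anti-Ang2 3 was the highest anti-Ang2 library for 4 of them (16.3%), and anti-Ang2 4 the lowest for 5 (19.6%). The melanoma and macrophage marker sums were 4573 and 283 CPM in anti-Ang2 3 and 579 and 56.1 CPM in IgG 5. The part of other cells in this spread was not tested.

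**Figure D3:**
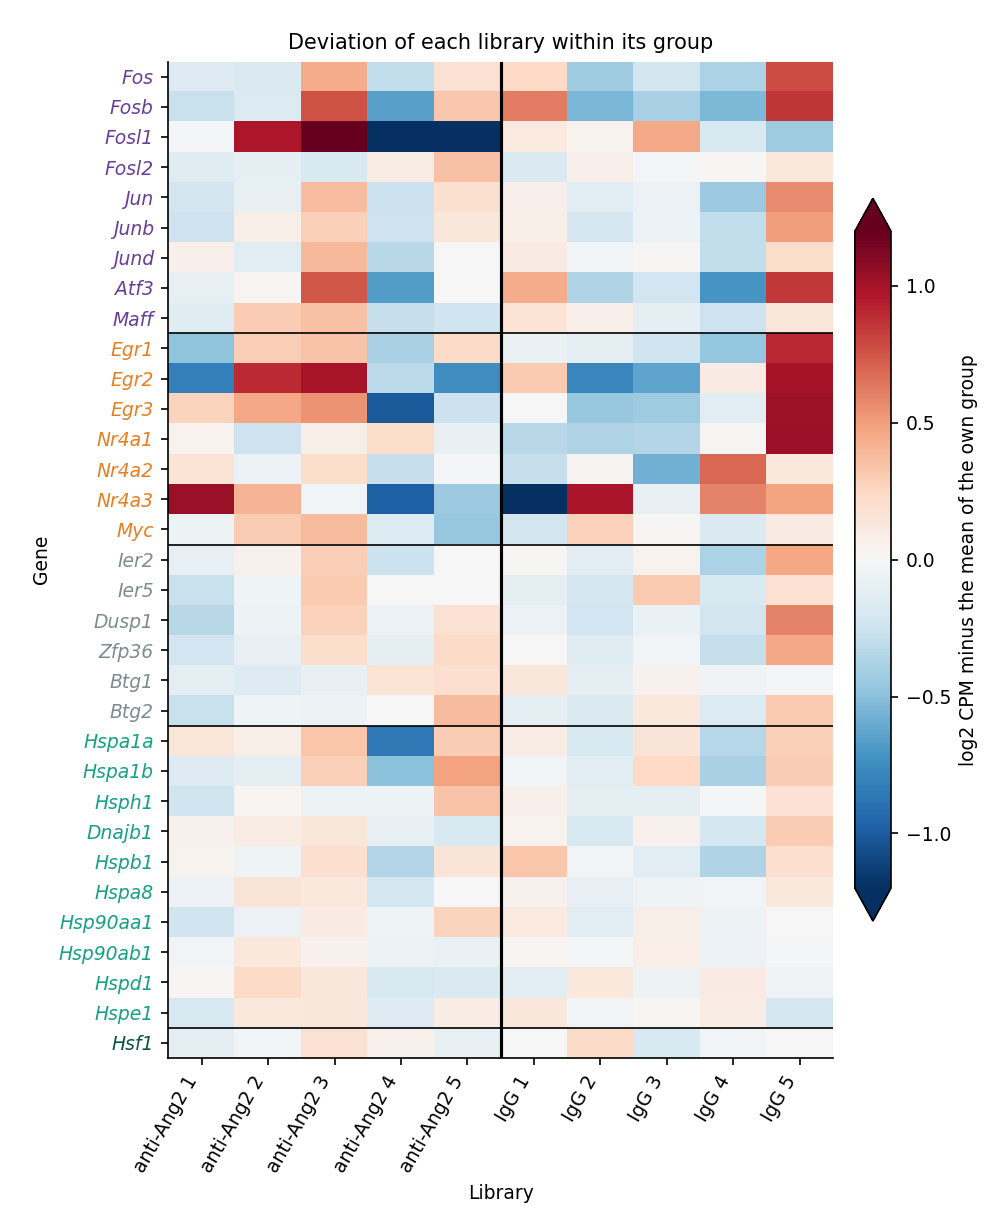
Colour shows log2 CPM minus the mean of the library's own group, for each member (rows, by role) in each anti-Ang2 library (left) and IgG library (right of the line); arrows on the colour bar mark values beyond its ends. IgG 5 and anti-Ang2 3 are red for most immediate early genes (median 0.47 and 0.33). The chaperone rows are paler, with medians of 0.15 and 0.13 in the same libraries.

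Chaperones fold new or damaged proteins, and 1 of the 11 heat shock genes was called higher and 0 lower. Hspb1 (HSP27), a small heat shock protein that holds unfolding proteins and binds actin, had 31.4, 29.5, 35.2, 23.9 and 34.0 CPM in anti-Ang2 libraries, against 25.2, 19.5, 18.2, 15.6 and 23.0 CPM in IgG libraries. In all but anti-Ang2 4 it lay above every IgG library. The mean was 30.8 ± 4.44 CPM in anti-Ang2 and 20.3 ± 3.80 CPM in IgG libraries (SD, n = 5 each), and the log2 fold change 0.60 ± 0.15 (SE, adjusted p = 0.0485 by edgeR). In the authors' deposited table its adjusted p was 0.00429. The call was lost when anti-Ang2 1, 2, 3 or 5 or IgG 2, 3, 4 or 5 was left out alone (log2 fold change 0.52 to 0.65, adjusted p 0.0715 to 0.130 by edgeR). It was also lost with a term for melanoma marker RNA (0.70 ± 0.22, adjusted p = 0.201 by edgeR), with one for macrophage marker RNA (0.54 ± 0.18, 0.210) and without anti-Ang2 1, 2 and 3 (0.50 ± 0.22, 0.303).

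Next by p-value came Hsph1 (HSP110), which exchanges the nucleotide of HSP70. It had 202, 243, 229, 229 and 303 CPM in anti-Ang2 libraries, against 195, 174, 174, 185 and 211 CPM in IgG libraries. All but anti-Ang2 1 lay above every IgG library. The log2 fold change was 0.36 ± 0.11 (SE, adjusted p = 0.0910 by edgeR; 0.0202 by DESeq2 and 0.0237 in the authors' deposited table). The mitochondrial chaperonin Hspd1 (HSP60) and its lid Hspe1 (HSP10), which work as a pair, had similar estimates. Hspd1 had 58.7, 68.2, 64.1, 50.9 and 51.5 CPM in anti-Ang2 libraries, against 44.1, 52.3, 46.0, 51.5 and 46.5 CPM in IgG libraries, and its highest values were in anti-Ang2 1, 2 and 3. Hspe1 had 15.01 ± 1.62 CPM in anti-Ang2 and 12.0 ± 1.09 CPM in IgG libraries (SD, n = 5 each). Their log2 fold changes were 0.29 ± 0.10 and 0.33 ± 0.13 (adjusted p = 0.144 and 0.199 by edgeR). Hspd1 passed without anti-Ang2 4 and 5 (0.39 ± 0.09, adjusted p = 0.0309 by edgeR) and by limma-voom (0.0494). Its estimate was 0.077 ± 0.11 with a term for melanoma marker RNA and 0.082 ± 0.10 without anti-Ang2 1, 2 and 3 (adjusted p = 0.824 and 0.752 by edgeR); the part of that RNA was not tested. The 2 genes overlap by 112 bases in opposite directions, so that a few of their reads cannot be told apart.

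The inducible and constitutive HSP70 and HSP90 genes did not pass the test. Hspa1b had 303, 310, 410, 239 and 470 CPM in anti-Ang2 libraries, against 351, 328, 422, 274 and 442 CPM in IgG libraries, and the groups overlapped (log2 fold change -0.07 ± 0.19, adjusted p = 0.898 by edgeR). Hspa1a had 91.3, 86.5, 104, 45.4 and 101 CPM in anti-Ang2 libraries, against 83.1, 68.6, 87.1, 61.4 and 94.97 CPM in IgG libraries (log2 fold change 0.12 ± 0.20, adjusted p = 0.837 by edgeR). Their reading frames share 1918 bases of 1926 and 1929, so their split is uncertain; summed to 1 gene the log2 fold change was -0.03 (adjusted p = 0.953 by edgeR). The HSP70 co-chaperone Dnajb1 (HSP40) had -0.09 ± 0.11 and constitutive Hspa8 (HSC70) 0.18 ± 0.08 on the log2 scale (adjusted p = 0.742 and 0.280 by edgeR). Hsp90aa1 and Hsp90ab1, the inducible and constitutive HSP90, changed by 5.09% (interval -9.48% to 22.004%) and 4.71% (interval -5.54% to 16.1%). Hsf1 itself had 78.4 ± 6.58 CPM in anti-Ang2 and 72.8 ± 7.61 CPM in IgG libraries (SD, n = 5 each), a change of 7.73% (interval -6.02% to 23.5%). Processed copies of several chaperone genes lie elsewhere in the genome, which makes their counts less certain.

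**Figure D4:**
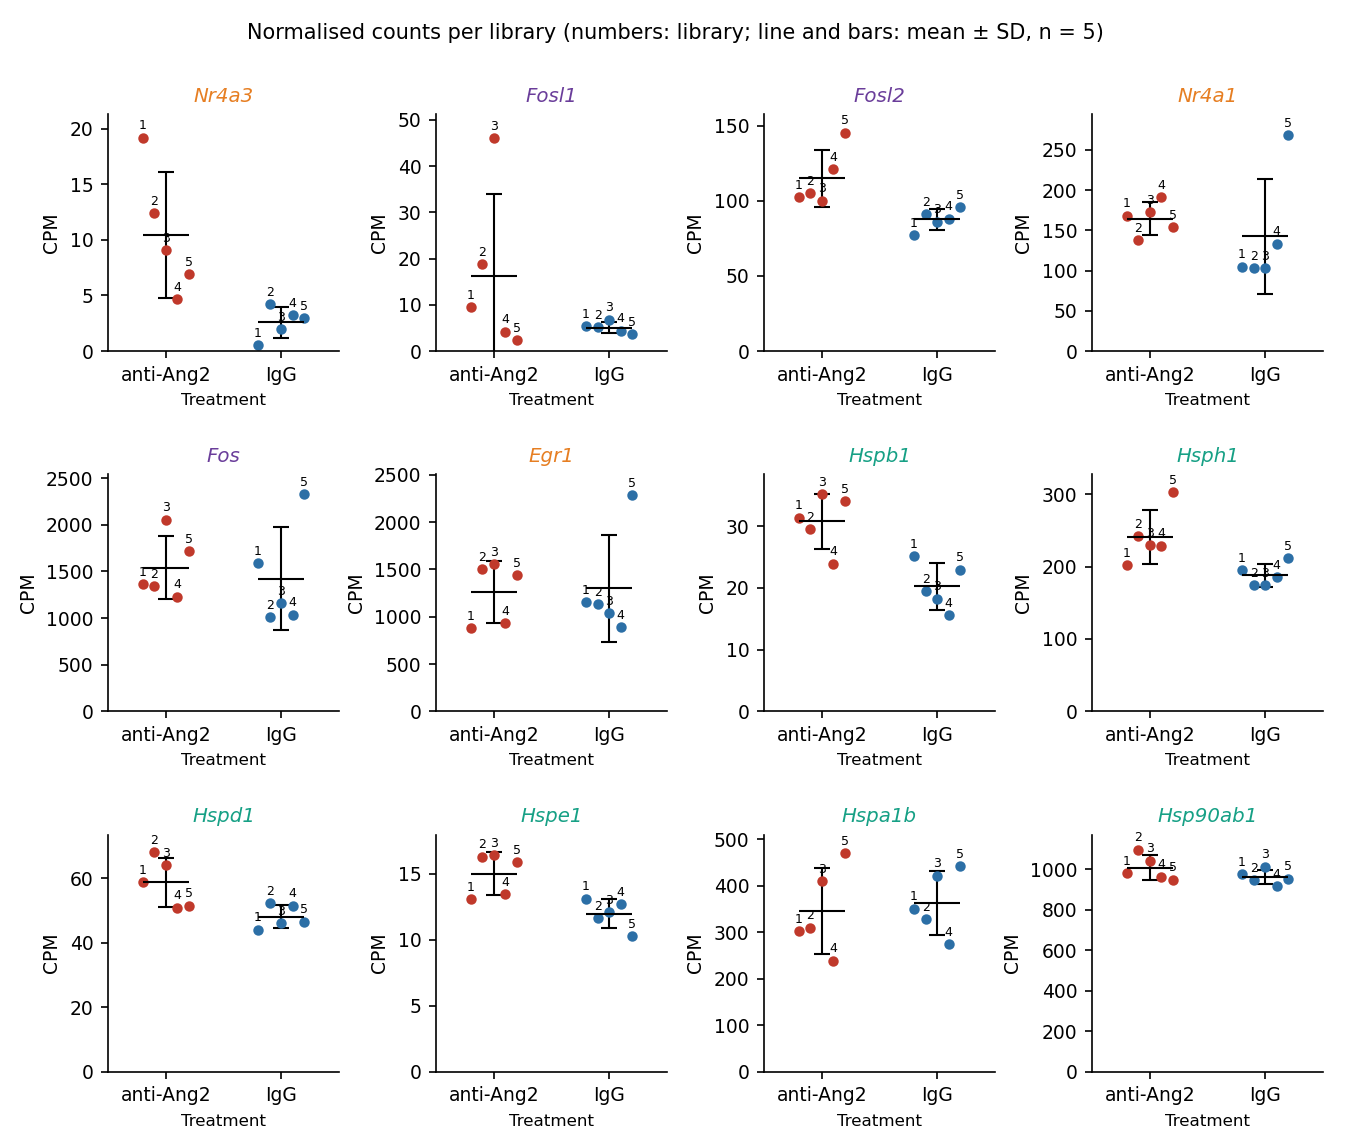
CPM of 12 members in each library (points numbered by library, anti-Ang2 left, IgG right; line and bars are mean ± SD, n = 5 each; the lower bar of Fosl1 reaches below the axis). Nr4a3 and Fosl2 do not overlap between the treatments, Hspb1 overlaps through anti-Ang2 4 alone, and Nr4a1, Fos and Egr1 have 1 high IgG library, IgG 5.

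The upstream sequences of the heat shock members carry the element that HSF1 reads. Of the 7 with a RefSeq promoter, 6 held GAANNTTC or TTCNNGAA (each its own reverse complement) within 250 bases upstream of a start site, Dnajb1 being the other, against 3 of 17 immediate early genes and 12.8% of all promoters. Some genes have several start sites, which raises the chance of a match. Hspb1, the called gene, has GAANNTTC at 117 and at 97 bases before its start, and 0.228% of promoters hold 2 or more of these. Hspa1a and Hspa1b share 149 of the 150 bases shown and the element with them. In the stretch of Hspe1, which it shares with Hspd1 in the opposite direction, 3 matches overlap to a run of 4 alternating units. All 30 bases of that stretch lie in an annotated GENCODE exon. The upstream window of the other Hspd1 start site holds neither element. Elements shared by 2 genes are counted for each of them among the 6. Capitals mark the matches (GRCm38.p6).
Hspb1, chr5:135887769-135887918, plus strand: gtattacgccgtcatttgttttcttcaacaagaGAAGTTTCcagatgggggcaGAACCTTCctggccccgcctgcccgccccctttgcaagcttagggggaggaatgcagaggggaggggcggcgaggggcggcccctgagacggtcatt
Hspa1a, chr17:34972157-34972306, minus strand: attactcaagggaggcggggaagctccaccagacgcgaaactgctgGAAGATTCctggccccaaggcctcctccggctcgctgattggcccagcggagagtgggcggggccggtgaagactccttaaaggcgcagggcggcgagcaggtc
Hspa1b, chr17:34959239-34959388, minus strand: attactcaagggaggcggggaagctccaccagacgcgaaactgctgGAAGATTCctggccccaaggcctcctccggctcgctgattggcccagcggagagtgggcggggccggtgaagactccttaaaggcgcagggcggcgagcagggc
Hspe1, chr1:55088054-55088083, plus strand: gtccgTTCTAGAACCTTCCGGAAggccccg

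Hspb1 (ENSMUSG00000004951.10) spans chromosome 5 from 135887919 to 135889563 on the plus strand of mm10. The other chaperones and their partners mostly did not pass either. A wider list held 49 tested genes (other HSP70 and HSP40 proteins, HSP90 co-chaperones, the CCT chaperonin and ubiquitin genes). Of these, 0 were called higher and 2 lower, with a median log2 fold change of 0.08. Over all tested genes 1.34% were called higher and 2.8% lower. The 2 called genes are distant relatives of HSP70. Hspa12a fell to 88.4 ± 12.9 CPM in anti-Ang2 libraries, against 178 ± 27.3 CPM in IgG libraries (log2 fold change -1.01 ± 0.13, adjusted p = 0.00155 by edgeR). Hspa12b, known for its part in angiogenesis, fell to 134 ± 13.8 CPM in anti-Ang2 libraries, against 227 ± 40.4 CPM in IgG libraries (-0.76 ± 0.12, adjusted p = 0.00573 by edgeR). Both stayed past the threshold whichever library was left out, and Hspa12a under all 22 alternatives run. Hspa12b lost its call with a term for melanoma (-0.66, adjusted p = 0.121 by edgeR) or macrophage marker RNA (-0.59, 0.0525) and without anti-Ang2 1, 2 and 3 (-0.68, 0.111).

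Among 50 other immediate early and early response genes 3 were called higher and 3 lower, with a median log2 fold change of 0.01. Over all tested genes 1.34% were called higher and 2.8% lower. The matricellular growth factor Ctgf rose (1009.6 ± 136 CPM in anti-Ang2 and 376 ± 94.5 CPM in IgG libraries), as did the zinc finger factor Klf6 (0.46 ± 0.10, SE) and the kinase Pim1 (1.05 ± 0.24). Klf10, a factor induced by TGF-beta, fell to 172 ± 34.4 CPM in anti-Ang2 libraries, against 364 ± 46.9 CPM in IgG libraries (log2 fold change -1.09 ± 0.15, adjusted p = 0.00200 by edgeR). The phosphatase Dusp2 fell to 234 ± 33.1 CPM in anti-Ang2 libraries, against 459 ± 127 CPM in IgG libraries (-0.97 ± 0.18, adjusted p = 0.0133 by edgeR), and the antiproliferative Tob1, a relative of the BTG proteins, by 0.56 on the log2 scale. Ctgf, Klf10 and Dusp2 stayed past the threshold whichever library was left out; Klf6, Pim1 and Tob1 missed it in at least 1 such case (adjusted p up to 0.0804, 0.0964 and 0.0658 by edgeR). Of these 6 genes Ctgf was called under all 22 alternatives. Klf10 lost its call with a term for melanoma marker RNA (-0.84, adjusted p = 0.0523 by edgeR). Dusp2 lost its call with that term (-0.77, 0.209), with one for macrophage marker RNA (-0.71, 0.125) and without anti-Ang2 1, 2 and 3 (-0.93, 0.139), as did Klf6, Pim1 and Tob1 in the same settings (adjusted p 0.0777 to 0.326 by edgeR). Klf6 and Pim1 also lost theirs without anti-Ang2 4 and 5 (0.0698 and 0.0557).

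Of 27 genes that act upstream of the immediate early genes, 0 were called higher and 5 lower. Over all tested genes 1.34% were called higher and 2.8% lower. The 27 genes, like the other lists, were chosen with earlier results of these data known. Elk3, an ETS partner of SRF that represses in the absence of ERK signalling, fell to 471 ± 60.7 CPM in anti-Ang2 libraries, against 747 ± 79.8 CPM in IgG libraries (log2 fold change -0.67 ± 0.11, adjusted p = 0.00500 by edgeR). The kinase Map3k1, which feeds JNK, fell by 0.76, and the ERK-activated kinases Rps6ka1 (RSK1) and Rps6ka3 (RSK2) by 0.57 and 0.78 on the log2 scale. Mapk14, which encodes p38-alpha, fell by 0.46 (adjusted p = 0.0487 by edgeR). Elk3, Map3k1 and Rps6ka1 stayed past the threshold whichever library was left out, whereas Rps6ka3 did so in 2 and Mapk14 in 1 of the 10 cases. With a term for melanoma marker RNA and without anti-Ang2 1, 2 and 3 all 5 lost their calls (adjusted p 0.0736 to 0.202 by edgeR), and with a term for macrophage marker RNA all but Elk3 did (0.0539 to 0.213). Mapk14 was also lost with RLE factors (0.0546), with no filter (0.0673) and without anti-Ang2 4 and 5 (0.0892). The median log2 fold change of the 27 genes was -0.01.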

How the data were processed

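RNA of sorted tumour lymphatic endothelial cells was sequenced in 10 libraries, 5 per treatment, grouped by the treatment label. STAR, featureCounts and DESeq2 were used with mm10, per the submitters' processing notes; their versions and the strand setting are not given in the sources used here. Per the file headers, the deposited table holds raw gene counts, the input of every test. The authors deposited FPKM, used here only to set levels of different genes side by side. The columns named TPM, which sum to over the total that defines TPM, are treated as a deposited score and were not used. The mean of scaled counts (baseMean), a signal deposited by the authors, was not used. The log2 fold changes and p-values of the authors' deposited table are quoted as theirs. Columns of per-sample values left without a sample numbered 0.

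Counts were tested with edgeR 4.0.16 in R 4.3.3 (quasi-likelihood F test, two-sided, TMM, filterByExpr with a minimum count of 10 and total of 15, treatment as the only factor), adjusted by Benjamini-Hochberg over all 16240 tested genes, and called at an adjusted p under 0.05. The standard error and the 95% confidence interval came from the same test. CPM values carry the TMM scaling, with a prior count of 2 on the log2 scale. Alternatives used DESeq2 1.42.0, limma 3.58.1 (voom with library quality weights), other scalings and filters, marker sums as covariates, a block and libraries left out. The fits were tested on simulated data. For marker sums an exact permutation test, two-sided, ran over 252 arrangements. Positions come from GENCODE M21 (mm10), where all 33 member IDs were found, 26 in the same version. Upstream sequences come from RefSeq (GRCm38.p6).

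Titles number the libraries 1 to 5 in both groups, but no label says that a number is shared. The numbers were therefore not taken as pairs, and a block by number was run as an alternative. Every pair of libraries in a group differed by more than sampling noise (chi-square over its degrees of freedom at least 58.0). The members and the other gene lists were chosen with earlier results of these data known. All 33 members are named, with values per library for the called gene, for the largest changes of each role and for the widest spreads; of other lists, up to 6 called genes per direction by smallest p.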

Additional observations from a re-analysis of the deposited data

Results flagged for a closer look

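Over the 33 members, 66 groups of 5 libraries were looked at for a library far from the other 4, and 4 met the 95% limit of Dixon's test (gap over range above 0.71), where chance flags about 1 in 20. In IgG 5, Egr1 stood at 2286 CPM against 888 to 1155 CPM in the other IgG libraries. Nr4a1 stood there at 268 CPM against 103 to 134 CPM, and Dusp1 at 1896 CPM against 1071 to 1195 CPM. In anti-Ang2 4, Hspa1a stood at 45.4 CPM against 86.5 to 104 CPM in the other anti-Ang2 libraries.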

How the results depend on the processing

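Counts over all genes, 217 higher and 454 lower at the reported settings, became 810 and 880 with DESeq2, 670 and 780 with limma-voom and quality weights, 24 and 98 with the melanoma sum in the model and 50 and 172 with the macrophage sum. They were 55 and 178 without anti-Ang2 1, 2 and 3 and 531 and 598 without anti-Ang2 4 and 5. With 1 library left out in turn they ran from 82 to 326 and from 259 to 468. The cause of these shifts was not tested. The sets with libraries left out also held fewer libraries.

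Immediate early genes called higher numbered 0, and 3 with DESeq2, 2 without anti-Ang2 4 and 5, and 1 with upper quartile factors, library totals, the stricter filter, limma-voom, the macrophage sum or without anti-Ang2 1, 2 and 3 (0 to 1 with 1 library left out). Heat shock genes called higher numbered 1, and 3 with DESeq2, 2 with limma-voom or without anti-Ang2 4 and 5, and 0 with no filter, either marker sum or without anti-Ang2 1, 2 and 3 (0 to 1 with 1 library left out). In both sets 0 were called lower under every setting run. The median log2 fold change of the immediate early genes was 0.24 with the melanoma sum and ran from 0.01 to 0.33 with 1 library left out, that of the heat shock genes from 0.07 to 0.23. DESeq2 called 8 other immediate early genes higher and 6 lower, 1 upstream gene higher, and 2 other chaperones higher and 3 lower. Over all genes to which it gave an adjusted p it called 5.46% higher and 5.94% lower. With 1 library left out, other immediate early genes called higher ran from 1 to 4 and lower from 2 to 4, upstream genes higher from 0 to 2 and lower from 3 to 4, and other chaperones lower from 2 to 3.

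Log2 fold changes of members that turned sign, none of them called, were 0.00041 for Btg1 and 0.0021 for Btg2 with upper quartile factors, 0.011 and 0.015 with library totals, and -0.0067 for Egr2 and -0.0064 for Myc with no filter. With the melanoma sum they were 0.13 for Egr1, -0.33 for Egr2, -0.27 for Myc, 0.16 for Zfp36, 0.18 for Btg1, 0.27 for Btg2, 0.23 for Hspa1b and -0.010 for Hsf1. With the macrophage sum they were 0.15 for Egr1, -0.13 for Egr2, 0.021 for Zfp36, 0.13 for Btg2 and 0.027 for Hspa1b. Without anti-Ang2 1, 2 and 3 they were -0.65 for Fosl1, -0.029 for Atf3, -0.74 for Egr2, -0.34 for Myc, 9.33e-05 for Zfp36, 0.15 for Btg1, 0.16 for Btg2, -0.12 for Hspa1a and -0.018 for Hsp90ab1. Without anti-Ang2 4 and 5 they were 0.0021 for Egr1 and -0.015 for Hsp90aa1. Hspa1a and Hspa1b summed gave -0.034. With 1 library left out the range was -0.15 to 0.26 for Egr1, -0.27 to 0.33 for Egr2, -0.0051 to 0.36 for Fos, -0.020 to 0.47 for Fosb, -0.091 to 0.10 for Myc, -0.11 to 0.088 for Zfp36, -0.064 to 0.025 for Btg1, -0.12 to 0.074 for Btg2 and -0.20 to 0.038 for Hspa1b.

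With the replicate number as a block 82 genes were higher and 268 lower, 0 heat shock genes and 0 immediate early genes were called, and 3 upstream genes were lower; Hspb1 had an adjusted p of 0.0556 by edgeR, Klf6 0.0849, Rps6ka1 0.0648 and Mapk14 0.158. Log2 fold changes under this block that turned sign were 0.0033 for Egr1, -0.081 for Egr2 and -0.017 for Myc. The deviations of same-numbered libraries from their group means correlated at -0.125 to 0.113, over 0.1 for 1 of the 5 numbers. Only 1 of 5 libraries correlated best with its own number. No label says that a number is shared, and these values cannot show whether same-numbered libraries had a day or litter in common.

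Depth bears most on the rarest members, Egr3 and Nr4a3, at a mean of 1.95 and 10.4 CPM in anti-Ang2 and 1.11 and 2.58 CPM in IgG libraries; 5 libraries per treatment limit the precision of all. The counts over the other immediate early, upstream and chaperone lists were recomputed with RLE factors (4 upstream genes lower), DESeq2, the block and single libraries left out; their called genes were refitted under all 22 alternatives, with the calls lost given beside them.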
